A study of Homo sapiens with 15 samples.

Results

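The genes that write, read and erase DNA methylation were examined in K562 cells, a chronic myeloid leukemia line that carries BCR-ABL1. The set was given as 10 gene symbols, namely the methyltransferases DNMT1, DNMT3A and DNMT3B, the adaptor proteins UHRF1 and UHRF2, the dioxygenases TET1, TET2 and TET3, the glycosylase TDG and the methyl-CpG binding protein MBD2. Entries were matched by symbol alone, from a list that was drawn up with earlier results of these data known. All 10 were listed in the table of the knockout cells, which holds 17769 genes with an identifier, and in the table of the resistant cells, which holds 60510. All 10 also passed the filter on low values in both tables, a log2 CPM (reads on a gene scaled to library size, on a log2 scale) of -1 or more in at least 3 libraries, which left 17039 and 16503 genes to test. The series has 15 RNA-seq libraries in 5 groups of 3.

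The knockout table compares cells in which the gene of 1 of the cytosolic HSP90 chaperones was targeted. Empty vector cells (EV) are wild type, HSP90α-KO cells are targeted at HSP90AA1 and HSP90β-KO cells at HSP90AB1. The labels describe all 3 groups as transduced by lentivirus with Cas9 and a guide RNA, although no guide is named for the empty vector, then sorted on a fluorescent marker and grown from single cells, with no further treatment. The resistance table compares K562 cells that were kept on rising amounts of the HSP90 inhibitor PU-H71 until resistant clones could be picked (PUHr) with cells kept on the solvent DMSO in parallel (parental). The labels give both as wild type, while the study describes a copy number gain and a missense change at HSP90AA1 that the resistant cells had acquired. The labels do not say how many clones stand behind a group, so the effect of the knockout or of the resistance and the history of a clone cannot be told apart. The study calls the replicates of a group independent, but neither it nor the labels says whether they were separate cultures or clones, so p-values measure the spread between these libraries, which may be technical. Both knockouts are compared with the same EV libraries.

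Methylation of cytosine in CG pairs is copied after DNA replication by DNMT1, which UHRF1 brings to hemimethylated DNA, while DNMT3A and DNMT3B place methyl groups on unmethylated sites. TET enzymes oxidise 5-methylcytosine, and TDG cuts out the further oxidised bases, which base excision repair replaces with cytosine. MBD2 binds methylated CG pairs and recruits the NuRD repressor complex. DNMT3A and TET2 are best known in blood as genes that are mutated in clonal haematopoiesis and myeloid leukemia. The measurements below are transcript levels of these genes, and DNA methylation itself was not measured in these libraries.

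Reads on listed genes ranged from 19594381 to 26216730 per library. The member with the fewest reads was UHRF2, with 347 reads in its lowest library, where counting alone gives an error of 5.37%, and DNMT1 had the most, with up to 9185. HSP90AA1 had a log2 CPM of 9.49, 9.42 and 9.48 in EV and of 6.53, 6.46 and 6.51 in HSP90α-KO (log2 fold change -2.96, adjusted p = 2.6e-30), and it was 0.78 higher in HSP90β-KO. HSP90AB1 was lower in HSP90β-KO by a smaller difference of -0.55 (adjusted p = 1.3e-15), with 10.92, 10.90 and 10.88 against 11.46, 11.44 and 11.46 in EV. In PUHr, HSP90AA1 differed from parental by -0.13 (adjusted p = 4.7e-05) and HSP90AB1 by -0.24 (adjusted p = 1.9e-07). The study reports strongly raised HSP90α protein in PUHr by western blot after re-treatment with the inhibitor, a measure unlike these RNA values. The erythroid and haematopoietic markers GATA1, TAL1, KLF1, HBG1, HBG2, HBZ and LMO2, had at least 104 reads in every library. Of markers of other cells, EPCAM had 572 to 1861 reads, CD3D 63 to 283, CD3E 3 to 124, COL1A1 26 to 125 and COL1A2 1 to 137 where listed, while MS4A1 and KRT5 were at 0 reads in the resistance table and were not listed in the knockout table. Whether these reads bear on any result was not tested.

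Sequence before an annotated transcript start is shown for UHRF1 and DNMT3B, the member with the largest rise against a control and the 1 member that passed the test in all 4 comparisons. Each run is the 250 bases before a transcript start of the RefSeq annotation on build GRCh38.p14, on the plus strand and 5′ to 3′. These starts lie inside the genes as GENCODE v44 places them, from 32762385 on chromosome 20 for DNMT3B and from 4903080 on chromosome 19 for UHRF1, so the windows are not the sequence before the outermost start, which is not shown here. Capitals mark letters that match TTTNNCGC on either strand, a pattern that resembles the binding site of the E2F factors of the G1 to S phase transition.

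UHRF1 at chr19:4909251-4909500: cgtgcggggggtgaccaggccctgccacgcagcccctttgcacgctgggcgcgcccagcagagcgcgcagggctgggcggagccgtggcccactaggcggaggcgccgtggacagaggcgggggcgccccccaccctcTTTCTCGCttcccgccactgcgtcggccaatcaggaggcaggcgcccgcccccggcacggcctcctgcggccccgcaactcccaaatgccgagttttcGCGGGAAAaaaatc

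UHRF1 at chr19:4909894-4910143: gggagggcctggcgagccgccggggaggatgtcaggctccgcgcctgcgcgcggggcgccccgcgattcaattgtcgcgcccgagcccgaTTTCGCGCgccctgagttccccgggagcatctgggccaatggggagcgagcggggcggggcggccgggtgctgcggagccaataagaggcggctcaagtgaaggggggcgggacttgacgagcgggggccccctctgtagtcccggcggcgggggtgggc

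DNMT3B at chr20:32779602-32779851: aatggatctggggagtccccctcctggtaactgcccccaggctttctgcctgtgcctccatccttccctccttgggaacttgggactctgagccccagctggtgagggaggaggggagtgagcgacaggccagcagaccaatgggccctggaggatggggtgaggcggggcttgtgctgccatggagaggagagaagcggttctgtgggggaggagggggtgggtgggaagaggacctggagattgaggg

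The table of promoters held 21 such windows for the 10 members, at least 1 for each. UHRF1 was the 1 member with the pattern, in 2 of its windows, and 5.92% of all 35116 promoter windows of this length hold it. The number of CG pairs ran from 3 in the DNMT3B window to 41 in the third UHRF1 window, beside a median of 11 over all promoters. For DNMT3B this is the window of an internal start and says nothing of the CG pairs before the outermost start. A match describes letters only, and no match says only that these letters are not in this window.

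Levels are compared between genes as CPM per kilobase of the canonical transcript of GENCODE v44. In EV the order was DNMT1 at 63.4 ± 2.34 (SD, n = 3), DNMT3B at 21.3 ± 0.579, TDG at 17.8 ± 0.167, MBD2 at 8.97 ± 0.375, TET3 at 8.10 ± 0.332, UHRF1 at 7.90 ± 0.0318, DNMT3A at 6.21 ± 0.229, UHRF2 at 5.37 ± 0.277, TET1 at 5.13 ± 0.0753 and TET2 at 3.91 ± 0.0813. DNMT1, the maintenance enzyme, thus stood far above the other members. The libraries of TET3 and UHRF1 overlapped, as did those of UHRF2 and TET1, and no other neighbours in this order did. In parental cells, whose table was normalized on its own, DNMT1 was at 71.8 ± 1.69, DNMT3B at 43.4 ± 0.547, TDG at 33.0 ± 0.824 and TET1, the lowest, at 3.26 ± 0.0445 on the same scale. In every group DNMT1 led and DNMT3B and TDG took the next places, and the lowest member was TET2 in the 3 groups of the knockout table and TET1 in both groups of the resistance table. Gene-level values do not separate isoforms, and in bulk cells fewer cells with a transcript and fewer transcripts per cell cannot be told apart.

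**Figure D1:**
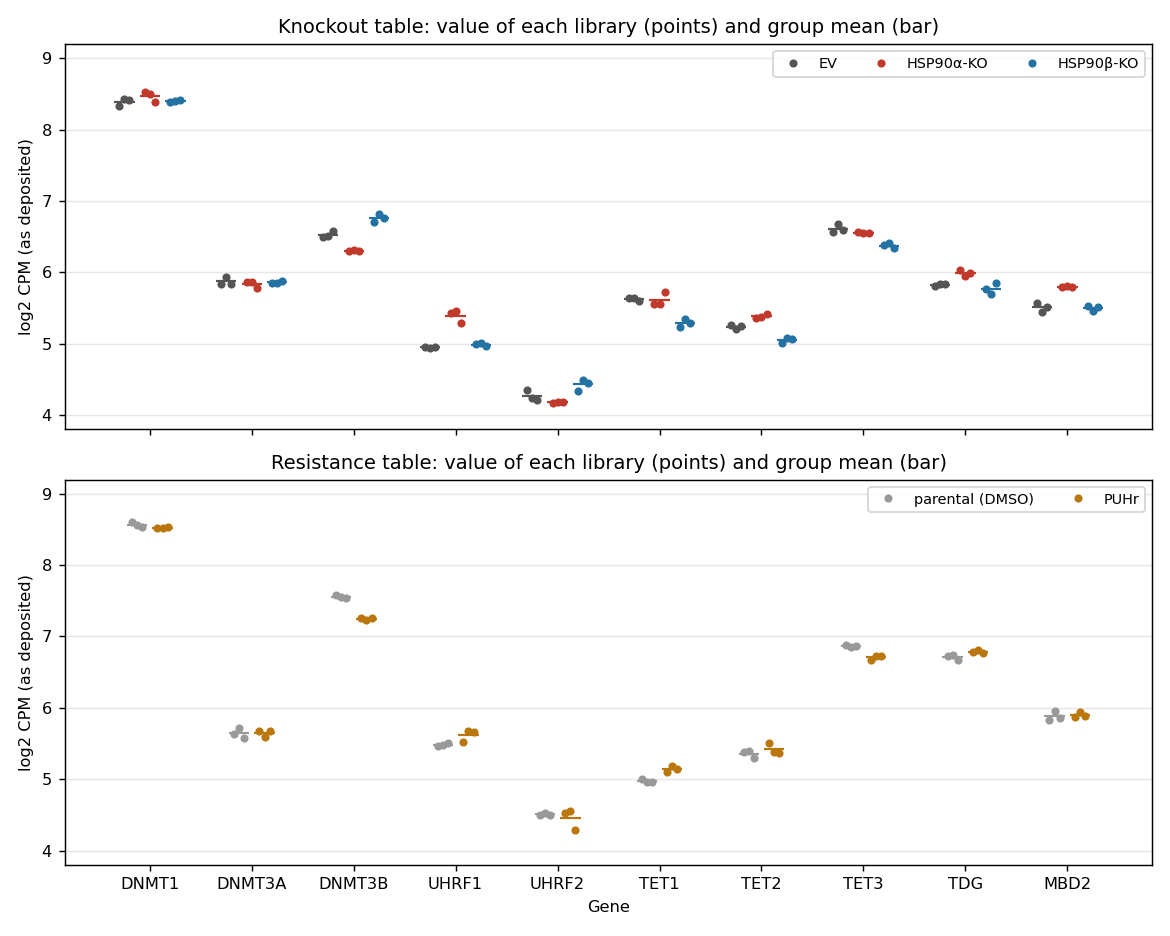
Log2 CPM as deposited (y axis) of the 10 genes (x axis) in every library, with points for libraries and short bars for the means of 3. Differences between genes on this axis are not per length. The DNMT3B libraries of the 3 groups of the knockout table lie apart, with HSP90α-KO lowest and HSP90β-KO highest, and the UHRF1 libraries of HSP90α-KO lie above all others of that table.

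Loss of HSP90α was compared with EV first. UHRF1 rose most among the members, 1.36-fold, followed by MBD2 at 1.22-fold, TDG at 1.12-fold, TET2 at 1.11-fold and DNMT1 at 1.06-fold, and DNMT3B fell to 0.856 of its EV level. These 5 higher members stand beside 27.5% of all tested genes that were higher by the same rule, an adjusted p under 0.05, and the 1 lower member beside 26.6% that were lower. No member was past the study's fold threshold of 1 on the log2 scale as well, which 10.3% of genes were. The libraries of the 2 groups did not overlap for 6 members, DNMT3B, UHRF1, UHRF2, TET2, TDG and MBD2, and for 57.3% of all genes. The median size of the log2 fold change, regardless of sign, was 0.12 over the members and 0.24 over all genes.

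Among the writers, DNMT3B had a log2 CPM of 6.50, 6.51 and 6.57 in EV and of 6.30, 6.32 and 6.30 in HSP90α-KO. All HSP90α-KO libraries lay below all EV libraries, and the difference was -0.22 (95% confidence interval -0.30 to -0.15, adjusted p = 1.17e-05). DNMT1 was at 8.32, 8.42 and 8.41 in EV and at 8.53, 8.50 and 8.39 in HSP90α-KO. These ranges overlapped, and the difference of 0.09 (0.02 to 0.16) had an adjusted p of 0.0298. The DNMT1 call was lost in 7 of 20 alternatives. Among them were the fits without EV replicate 1 (adjusted p = 0.186), HSP90α-KO replicate 1 (0.151) or HSP90α-KO replicate 2 (0.105). Fits with no intensity trend (0.165) or with only the 6 libraries compared (0.0578) lost it too. With quantile normalization the difference was 0.0068, and in a voom fit of the recovered reads it was 0.048 (adjusted p = 0.214). DNMT3A had 5.84, 5.93 and 5.84 in EV and 5.86, 5.87 and 5.77 in HSP90α-KO, a difference of -0.04 (-0.12 to 0.05, adjusted p = 0.494).

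UHRF1, the partner of DNMT1, was at 4.95, 4.94 and 4.95 in EV and at 5.43, 5.46 and 5.29 in HSP90α-KO, a difference of 0.44 (0.34 to 0.55, adjusted p = 2.7e-08). Its close relative UHRF2, which binds the same kind of DNA but does not replace UHRF1 in maintenance, was at 4.35, 4.24 and 4.21 in EV and at 4.17, 4.18 and 4.18 in HSP90α-KO. The UHRF2 libraries did not overlap, but the difference of -0.09 (-0.22 to 0.04) had an adjusted p of 0.223. UHRF1 transcripts peak around S phase, and of 15 genes of DNA replication and S phase 9 were higher and 1 was lower in HSP90α-KO, beside 27.5% and 26.6% of all genes, with a median difference of 0.10. In HSP90β-KO 7 of these 15 were higher and none was lower, beside 17.2% of all genes in each direction, with a median difference of 0.07, while UHRF1 differed by 0.04 and did not pass the test. In a separate assay of DNA content, the study found no significant change of cell cycle phases in either knockout. The part of cell cycle phase in the UHRF1 value was not tested.

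Among the erasers and the reader, MBD2 was at 5.56, 5.44 and 5.51 in EV and at 5.79, 5.80 and 5.79 in HSP90α-KO, a difference of 0.29 (0.20 to 0.38, adjusted p = 3.31e-06). TDG was at 5.81, 5.84 and 5.83 in EV and at 6.04, 5.94 and 5.995 in HSP90α-KO, 0.16 higher (0.07 to 0.25, adjusted p = 0.00249). TET2 was at 5.26, 5.20 and 5.24 in EV and at 5.37, 5.37 and 5.42 in HSP90α-KO, 0.15 higher (0.06 to 0.25, adjusted p = 0.00657). In each of these 3 genes the groups were apart, and the confidence intervals ended below 0.4. TET1 differed by -0.02 (-0.12 to 0.08, adjusted p = 0.768) and TET3 by -0.06 (-0.14 to 0.02, adjusted p = 0.19), with overlapping libraries for both, and TET3 passed in a voom fit of reads recovered from the log2 CPM (-0.10, adjusted p = 0.0266).

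Loss of HSP90β was compared with the same EV libraries. All 3 TET genes were lower, TET1 at 0.790, TET3 at 0.847 and TET2 at 0.883 of the EV level, and DNMT3B was 1.17-fold and UHRF2 1.12-fold higher. The 2 higher members stand beside 17.2% of tested genes that were higher and the 3 lower members beside 17.2% that were lower. None was beyond 1 on the log2 scale, which 4.48% of genes were. The libraries did not overlap for 5 members, DNMT3B, UHRF1, TET1, TET2 and TET3, against 46.6% of all genes. The median size of the log2 fold change was 0.11 over the members and 0.15 over all genes.

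TET1 was at 5.64, 5.64 and 5.60 in EV and at 5.24, 5.34 and 5.28 in HSP90β-KO, a difference of -0.34 (-0.44 to -0.24, adjusted p = 2.97e-06). TET3 was at 6.56, 6.67 and 6.60 in EV and at 6.38, 6.40 and 6.33 in HSP90β-KO, a difference of -0.24 (-0.32 to -0.16, adjusted p = 1.11e-05). TET2 was at 5.26, 5.20 and 5.24 in EV and at 5.01, 5.08 and 5.07 in HSP90β-KO, a difference of -0.18 (-0.27 to -0.08, adjusted p = 0.00313). Every HSP90β-KO library was thus below every EV library in all 3 TET genes, and the 3 calls held in each of the 20 alternative settings that were run. TDG, which acts after the TET enzymes, differed by -0.06 (-0.15 to 0.03, adjusted p = 0.297).

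DNMT3B had a log2 CPM of 6.70, 6.81 and 6.76 in HSP90β-KO, above the 3 EV values given before, and the difference was 0.23 (0.15 to 0.31, adjusted p = 1.86e-05). UHRF2 was at 4.34, 4.50 and 4.45 in HSP90β-KO, where the lowest library lay within the EV range, and the difference of 0.16 (0.03 to 0.29) had an adjusted p of 0.0473. That UHRF2 call was lost in 11 of 20 alternatives, among them those without EV replicate 2 (adjusted p = 0.106), EV replicate 3 (0.178), HSP90α-KO replicate 2 (0.0519), HSP90β-KO replicate 2 (0.201) or HSP90β-KO replicate 3 (0.127), and with the replicate number as a block (0.0649). UHRF1 was at 4.99, 5.01 and 4.97, just above the EV libraries, with a difference of 0.04 (-0.06 to 0.14, adjusted p = 0.599). The differences of DNMT1, DNMT3A and MBD2 were 0.01, -0.01 and -0.01, with confidence intervals that stayed between -0.10 and 0.08.

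**Figure D2:**
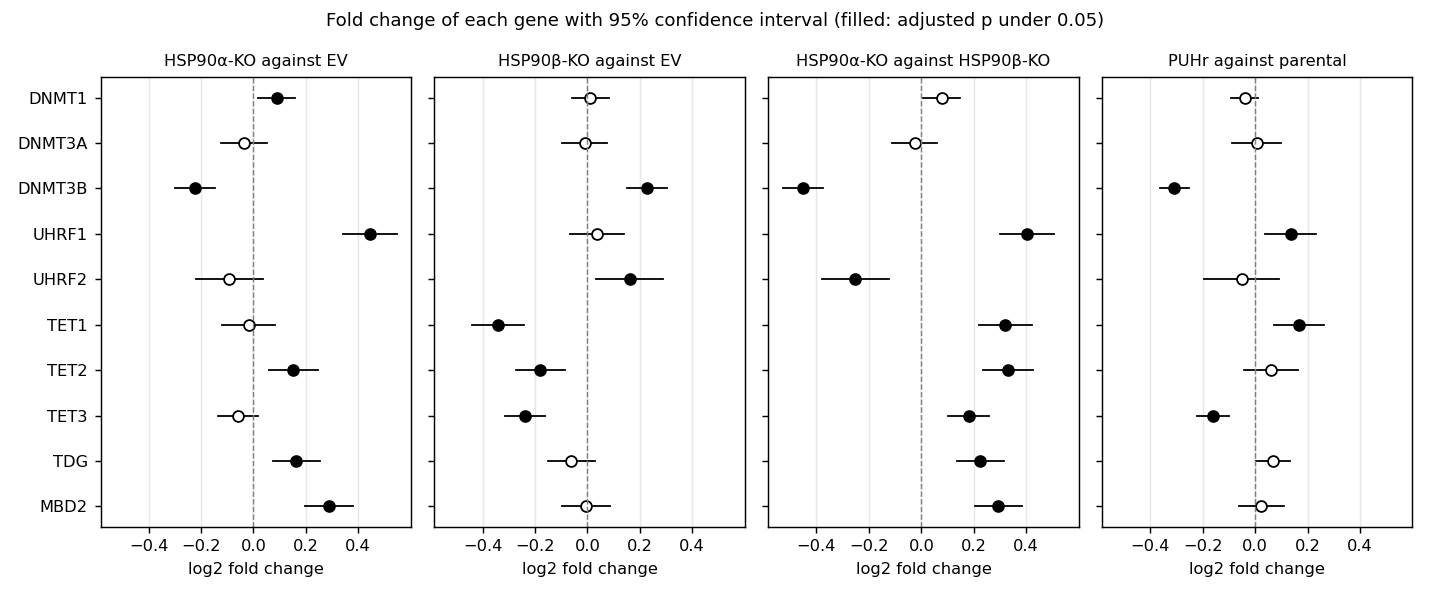
Log2 fold change (x axis) of the 10 genes (y axis) in each comparison, with 95% confidence intervals from limma. Filled points have an adjusted p under 0.05. The 3 TET genes lie left of 0 in HSP90β-KO, and DNMT3B lies left of 0 in HSP90α-KO and PUHr and right of 0 in HSP90β-KO.

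The knockouts were then compared with each other, which tests the difference between their means, with a spread estimated from the EV libraries as well. DNMT3B and UHRF2 were lower in HSP90α-KO than in HSP90β-KO, and UHRF1, TET1, TET2, TET3, TDG and MBD2 were higher. The 6 higher members stand beside 30.1% of all genes and the 2 lower beside 29.8%. No member was beyond 1 on the log2 scale, against 12.7% of genes, and 8 members had libraries that did not overlap, against 63.8%. The median log2 fold change was 0.20 over the members and -0.01 over all genes, while its median size was 0.27 and 0.28.

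DNMT3B, lower in the one knockout and higher in the other against EV, had the largest difference of the members at -0.45 (-0.53 to -0.38, adjusted p = 4.26e-11), so its level in HSP90α-KO was 0.730 of that in HSP90β-KO. UHRF1 was 1.32-fold higher in HSP90α-KO, with a difference of 0.40 (0.30 to 0.51, adjusted p = 9.78e-08). TET2 differed by 0.33 (adjusted p = 6.23e-07), TET1 by 0.32 (adjusted p = 2.45e-06) and TET3 by 0.18 (adjusted p = 1.63e-04). MBD2 differed by 0.29 (adjusted p = 1.92e-06), TDG by 0.22 (adjusted p = 7.45e-05) and UHRF2 by -0.25 (adjusted p = 0.00107). DNMT1 lay near the threshold with a difference of 0.08 (0.01 to 0.15, adjusted p = 0.0511), which passed without EV replicate 1 (0.0389), EV replicate 2 (0.0414) or HSP90α-KO replicate 3 (0.00163) and changed sign with quantile normalization (-0.03). DNMT3A differed by -0.03 (-0.11 to 0.06, adjusted p = 0.627), so its interval held no difference above 0.11 in size in this comparison.

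Resistance to PU-H71 was compared with the parental cells in the second table. DNMT3B fell to 0.808 and TET3 to 0.894 of the parental level, and TET1 rose 1.12-fold and UHRF1 1.10-fold. The 2 higher members stand beside 25.6% of tested genes that were higher and the 2 lower beside 25.8% that were lower. None was beyond 1 on the log2 scale, against 10.1% of genes. The libraries did not overlap for 6 members, DNMT1, DNMT3B, UHRF1, TET1, TET3 and TDG, against 58.5% of genes. The median size of the log2 fold change was 0.06 over the members and 0.21 over all genes.

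DNMT3B was at 7.58, 7.55 and 7.54 in parental cells and at 7.26, 7.23 and 7.25 in PUHr, with narrow groups that lay apart. The difference was -0.31 (-0.36 to -0.25, adjusted p = 1.07e-07), and it ranged from -0.36 to -0.25 over the 16 alternatives run. TET3 was at 6.89, 6.86 and 6.87 in parental cells and at 6.68, 6.73 and 6.73 in PUHr, a difference of -0.16 (-0.22 to -0.10, adjusted p = 2.63e-04). TET1 went the other way within the TET family, from 4.998, 4.96 and 4.96 to 5.10, 5.19 and 5.14, a difference of 0.17 (0.07 to 0.26, adjusted p = 0.00529). TET2 was at 5.38, 5.39 and 5.30 in parental cells and at 5.51, 5.38 and 5.36 in PUHr, with overlap and a difference of 0.06 (-0.04 to 0.16, adjusted p = 0.317). In a voom fit of the recovered reads TET2 was 0.12 higher and passed (adjusted p = 0.0457), and without 1 library at a time its difference ran from 0.01 to 0.09.

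UHRF1 was at 5.47, 5.47 and 5.51 in parental cells and at 5.52, 5.67 and 5.66 in PUHr, a difference of 0.13 (0.04 to 0.23, adjusted p = 0.0231). The lowest PUHr library almost touched the highest parental library, and the call was lost without parental replicate 1 (0.0758), parental replicate 2 (0.0692) or PUHr replicate 3 (0.0955). With each library centred on its median gene, which moved the median of all genes to -0.04, UHRF1 missed the threshold (0.123) and DNMT1 passed it (0.00922), so that 1 member was higher and 3 were lower. DNMT1 was at 8.60, 8.56 and 8.53 in parental cells and at 8.53, 8.51 and 8.53 in PUHr, a difference of -0.04 (-0.09 to 0.01, adjusted p = 0.162) whose sign turned with quantile normalization (0.04) and in a voom fit of the recovered reads (0.02). TDG differed by 0.07 (0.00 to 0.13, adjusted p = 0.071), and passed in that voom fit (0.13, adjusted p = 0.00152). DNMT3A, UHRF2 and MBD2 differed by 0.0050, -0.05 and 0.02, with adjusted p of 0.934, 0.547 and 0.667.

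Because the cells were grown from single cells, each member was set beside the 20 tested genes on either side of it on its chromosome, to see whether a region moved as a whole. The median log2 fold change of these 40 neighbours lay between -0.12 and 0.15 for all members and comparisons. DNMT3B (chr20:32762385-32809359 in GENCODE v44, plus strand) differed by -0.22 in HSP90α-KO, 0.23 in HSP90β-KO and -0.31 in PUHr, while the medians of its neighbours were 0.10, 0.02 and 0.01. UHRF1 (chr19:4903080-4962154, plus strand) differed by 0.44 in HSP90α-KO against 0.02 for its neighbours. In HSP90β-KO, TET1 (chr10:68560337-68694487, plus strand) differed by -0.34 against -0.01, TET3 (chr2:73984910-74108176, plus strand) by -0.24 against 0.03, and TET2 (chr4:105145875-105279816, plus strand) by -0.18 against 0.02. In HSP90α-KO, MBD2 (chr18:54151606-54224669, minus strand) differed by 0.29 against 0.03, and TDG (chr12:103965822-103988874, plus strand) by 0.16 against -0.09. DNMT1 (chr19:10133342-10231286, minus strand) differed in HSP90α-KO by nearly the same as its neighbours, 0.09 against 0.08. DNMT3A (chr2:25227855-25342590, minus strand) had neighbour medians of 0.06, 0.03 and -0.07 in HSP90α-KO, HSP90β-KO and PUHr. UHRF2 (chr9:6413151-6507054, plus strand) had neighbour medians of -0.06, -0.01 and -0.12. These are descriptions with no test.

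**Figure D3:**
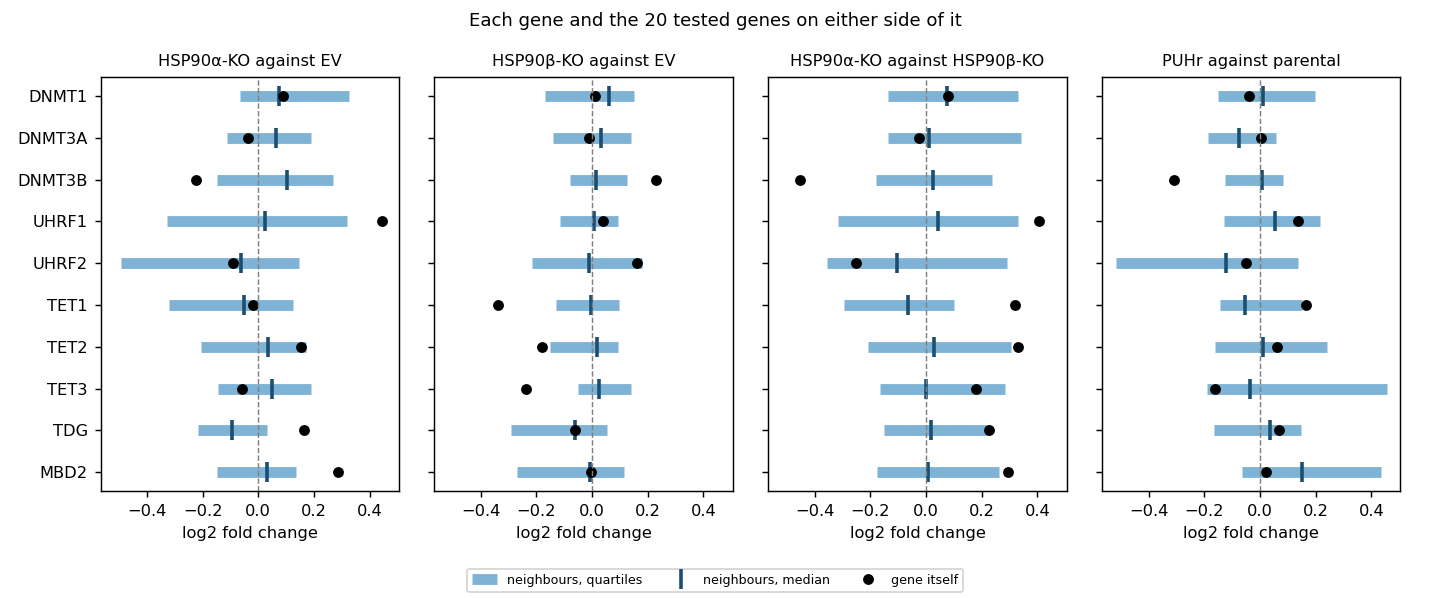
Log2 fold change (x axis) of each gene (black points) in the 4 comparisons, with the median (dark tick) and quartiles (light bar) of the 20 tested genes on either side. In HSP90β-KO the points of TET1, TET2, TET3 and DNMT3B lie outside the quartiles of their neighbours, and DNMT1 lies inside them in all 4 comparisons.

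Reads counted on genes that overlap a member and on pseudogenes of members were few, and reads shared between them and the members were not measured. S1PR2, which overlaps DNMT1 on the same strand, had 51 to 98 reads, the pseudogene COX20P1 within TET1 had 28 to 82, and the unnamed transcript ENSG00000235499 within TET3 had 23 to 64. A UHRF1 pseudogene (ENSG00000256663) had 5 to 22 reads, beside at least 636 on UHRF1 itself, and the TDG pseudogene TDGP1 had 1 to 6 in the resistance table.

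The wider pathway was read from 6 hand-written lists of 70 genes, of which 64 were tested for the knockout cells and 63 for the resistant cells. In HSP90α-KO 23 were higher and 20 lower, in HSP90β-KO 25 were higher and 9 lower, and in PUHr 15 were higher and 22 lower, beside the background shares given above. Between the knockouts 18 were higher and 26 lower in HSP90α-KO. The median log2 fold change of these genes was 0.01, 0.08 and -0.0025 in the 3 comparisons with a control, beside -0.01, 0.0016 and 0.0047 over all genes.

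In HSP90α-KO the genes given by the naming rule included CDCA7L, IDH2, KDM1B and PARP1. CDCA7L, a paralogue of the HELLS partner CDCA7, was at 5.32, 5.13 and 5.25 in EV and at 4.27, 4.38 and 4.39 in HSP90α-KO, a difference of -0.89 (adjusted p = 1.58e-13) where its neighbours had a median of -0.02. IDH2, a mitochondrial isocitrate dehydrogenase that makes 2-oxoglutarate, was 0.67 higher (adjusted p = 2.11e-15), and its 40 neighbours had a median of 0.17 with 26 of them higher. TET enzymes use 2-oxoglutarate, but its supply to them was not measured. KDM1B, a histone H3K4 demethylase, was 0.63 higher (adjusted p = 2.21e-13), and PARP1, a sensor of DNA breaks in base excision repair, was 0.60 higher (adjusted p = 1.14e-16). Among the methyl-CpG readers other than MBD2, 3 of 7 were lower in HSP90α-KO and none was higher. Outside the rule, and named after their values were seen, 2 genes had few reads. DNMT3L, the catalytically inactive cofactor of DNMT3A and DNMT3B, had only 4 to 5 reads in EV, 13 to 16 in HSP90α-KO and 1 to 3 in HSP90β-KO, and CXXC4, a CXXC protein that binds TET2, had 28 to 35 in EV, 0 to 4 in HSP90α-KO and 33 to 38 in HSP90β-KO.

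In HSP90β-KO the named genes were IDH1, NEIL2, D2HGDH, MCM3 and ZBTB33. IDH1, the cytosolic isocitrate dehydrogenase, was at 7.83, 7.73 and 7.82 in EV and at 7.03, 6.95 and 6.94 in HSP90β-KO, a difference of -0.82 (adjusted p = 2.21e-16). Its 40 neighbours on chromosome 2 had a median of -0.57 with 37 of them lower, and D2HGDH near the end of the same arm, which oxidises D-2-hydroxyglutarate, differed by -0.49 (adjusted p = 1.88e-08) beside a median of -0.54 over 23 neighbours. TET3 and DNMT3A lie on the other arm of that chromosome. D2HGDH was also lower in HSP90α-KO against the same EV libraries, by -0.46 (adjusted p = 2.24e-08). Between the knockouts it differed by 0.03 (adjusted p = 0.668). NEIL2, a glycosylase of base excision repair, was 0.75 higher (adjusted p = 4.8e-10), and its 40 neighbours had a median of 0.27 with 32 of them higher. MCM3, a subunit of the replicative helicase, was 0.41 higher (adjusted p = 1.68e-12) and ZBTB33, the reader also called Kaiso, 0.40 higher (adjusted p = 6.13e-09). Of 12 tested genes of base excision repair and the GADD45 family, 7 were higher and 1, PARP1, was lower, beside 17.2% of all genes in each direction, with a median of 0.12 against 0.0016 over all genes. Between the knockouts the named genes included CDCA7L (-1.27), NEIL2 (-1.05), PARP1 (0.91) and IDH2 (0.68), each a log2 fold change of HSP90α-KO against HSP90β-KO. In this comparison the neighbours of NEIL2 had a median of -0.26 with 30 of 40 lower, and those of PARP1 a median of 0.35 with 36 of 40 higher.

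**Figure D4:**
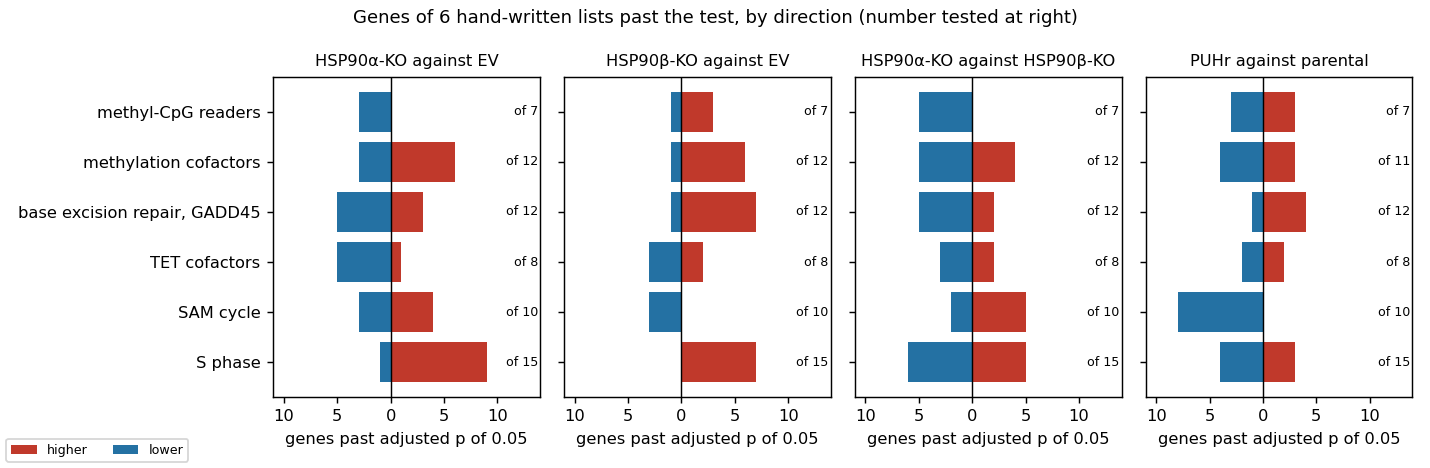
Number of genes past an adjusted p of 0.05 (x axis) in 6 lists (y axis) for each comparison, with genes that were higher to the right and genes that were lower to the left of 0, and the number tested at the right edge. In PUHr, 8 of 10 tested genes in and around the S-adenosylmethionine cycle were lower and none was higher.

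In PUHr the largest difference of the pathway was in IDH2, which was at 6.13, 6.03 and 6.02 in parental cells and at 3.42, 3.69 and 3.58 in PUHr. The difference was -2.49 (-2.63 to -2.36, adjusted p = 3.27e-13), a level of 0.177 of parental, whereas the 40 genes around it had a median of 0.02. CXXC4, with only 36 to 43 reads in parental cells and 43 to 79 in PUHr, was 0.54 higher (adjusted p = 0.0281), CDCA7L 0.45 higher (adjusted p = 2.72e-07) and GADD45A 0.45 higher (adjusted p = 1.25e-05). One list held genes in and around the cycle of S-adenosylmethionine, the methyl donor of all DNMT enzymes. Its median was -0.21 against 0.0047 over all genes, and 8 of its 10 tested genes were lower, beside 25.8% of all genes. Among these 8 were MAT2A, MAT2B, AHCY, MTR, MTRR, CBS and SLC25A26, whose log2 fold changes ran from -0.45 to -0.09. CDCA7L was thus lower in HSP90α-KO and higher in PUHr, against their own controls. In HSP90β-KO it was 0.38 higher than in EV (adjusted p = 2.58e-06). Its 40 neighbours in PUHr had a median of 0.16, with 29 of them higher.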

How the data were processed

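RNA was sequenced by the authors with a stranded mRNA kit on a NextSeq550. Per the methods of the authors, trimmed reads were mapped on GRCh38 by RNA STAR, assigned to genes by featureCounts and scaled to depth by edgeR on Galaxy. Versions and the gene annotation are not given in the sources used here. The deposited values of both tables are log2 CPM. On the linear scale they fall on whole reads within 0.00033 reads, with between 19594381 and 26216730 reads per library. Replicates of a group differed by 1.15 to 4.23 times the variance of counting (chi-square per degree of freedom).

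The members and lists were chosen with earlier results of these data known. Rows that carry no gene identifier (30 in the first table, 114 in the second) were dropped. Identifiers were matched to GENCODE v44 for 17739 of 17769 and 60370 of 60510 genes. DSMO in the names of the parental columns was taken as DMSO.

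Genes that reached a log2 CPM of -1 in 3 libraries or more were tested with limma 3.58.1 in R 4.3.3 (lmFit, contrasts, eBayes with an intensity trend, two-sided), in 1 fit per table, with Benjamini-Hochberg adjustment over 17039 and 16503 genes. The fits were tested on simulated data. Groups were taken from the labels. Named were all 10 members, HSP90AA1 and HSP90AB1, and in each comparison the 5 genes of the lists with the largest log2 fold change among those with an adjusted p under 0.05 and a mean log2 CPM not under 1. Some of these genes, and some of the cell markers looked at, are not reported here. Alternatives changed the filter, the pseudocount (0.1, 1 or 5 CPM), the normalization, the trend, the libraries fitted and the replicate block, or used voom on the recovered reads.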

Additional observations from a re-analysis of the deposited data

How the results depend on the processing

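Of 760 values of the members under alternative settings, 702 kept their direction and their side of the threshold, 23 lost and 11 gained a call, and 24 changed sign. The counts of members called differed by at most 1.5 times from the main count. Every change of sign was in a member without a call in that comparison.

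In HSP90β-KO against EV, median centring gave -0.0313 for DNMT1 and -0.00363 for UHRF1, and voom gave 0.0169 for DNMT3A and 0.0188 for MBD2. Between the knockouts, quantile normalization gave -0.0288 for DNMT1 and median centring 0.0176 for DNMT3A. In PUHr, quantile normalization gave 0.0371 for DNMT1 and -0.000662 for DNMT3A, median centring -0.0421 for DNMT3A and -0.0244 for MBD2, and voom 0.0167 for DNMT1 and 0.0101 for UHRF2. Leaving out 1 library at a time gave -0.0740 to 0.00915 for TET1 in HSP90α-KO. In HSP90β-KO it gave -0.0199 to 0.0296 for DNMT1, -0.0257 to 0.0201 for DNMT3A and -0.0371 to 0.0231 for MBD2. Between the knockouts it gave -0.0425 to 0.00553 for DNMT3A. In PUHr it gave -0.0282 to 0.0419 for DNMT3A, -0.101 to 0.0326 for UHRF2 and -0.00431 to 0.0582 for MBD2. The cause was not tested.

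Replicate numbers did not pair the samples, since the correlation of deviations between same-numbered libraries was at most 0.031 among the knockout libraries and 0.0449 among the others. With a replicate block the counts of called members were 6 in HSP90α-KO, 4 in HSP90β-KO, 8 between the knockouts and 4 in PUHr, and UHRF2 in HSP90β-KO was the call that was lost. With voom, 4 members were higher and 2 lower in HSP90α-KO, and 4 were higher and 2 lower in PUHr. With 10 or 40 neighbours on either side, 43 of the 80 neighbour medians moved by more than the spread between replicates.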
